A study of Homo sapiens with 12 samples.

Results

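The chaperones of the endoplasmic reticulum (ER) and the genes of ER-associated degradation (ERAD) were examined in T47D cells, a human breast cancer line that expresses the estrogen receptor. The members are the rows of the count table named HSPA5, HSP90B1, DNAJB9, HERPUD1, PDIA4, PDIA6, CALR, CANX, SEL1L and EDEM1, which are 10 of 25370 genes. The rule takes them by name and uses no measured value, although earlier results of these data were known when it was written. All 10 had counts in every library and all 10 were among the 21132 genes tested. RNA-seq libraries came from 4 groups of 3, lettered a, b and c: vehicle, anastrozole at 10 nM, 17β-estradiol (E2) at 0.1 nM, and both agents at those doses. Anastrozole is a nonsteroidal aromatase inhibitor, used here to ask whether it shifts the transcriptome of these cells as E2 does. Every group, vehicle included, had been kept in charcoal-stripped serum and then without serum before treatment. The labels give 12 hours of treatment and the study's methods a longer time, so the time is uncertain. The labels do not say whether the replicates were separate cultures. The study describes its gene expression data in general as coming from independent experiments, without naming the RNA-seq libraries. The p-values measure the spread between these libraries, which may be partly technical.

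Proteins that enter the ER are folded there by chaperones of the Hsp70 and Hsp90 families, by lectin chaperones that bind sugar-carrying chains, and by disulfide isomerases. Chains that fail to fold are passed to ERAD, which moves them back to the cytosol for destruction by the proteasome. When unfolded chains build up, the sensors of the unfolded protein response (IRE1, PERK and ATF6) raise the transcription of many of these genes, and ATF6 does so partly through the ER stress response element (ERSE) in their promoters. The response is of interest in breast cancer cells because estrogen signalling has been linked to it.

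The promoter sequences are shown because they divide the members into those with and without this element. The 300-base RefSeq promoters of build GRCh38.p14, which run from 250 bases before the start site to 50 after it, were searched on both strands for the ERSE letters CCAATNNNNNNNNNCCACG, the ERSE-II letters ATTGGNCCACG and the unfolded protein response element TGACGTGG. All 10 members had a promoter in that collection. ERSE was found in 5 of 10 members, counting a gene when any of its promoters held it, against 25 of 27305 genes (0.0916%) searched the same way. ERSE-II was found in HERPUD1 alone among the members, against 0.0696% of all genes, and TGACGTGG was found in 0 members, against 0.927%. The members were taken by name, and the response is known to raise many of them. These shares therefore describe the members and are not a test. The CCAAT letters alone were found in 10 of 10 members and in 39.7% of all genes. They are contained in ERSE, and their reverse complement is contained in ERSE-II. By promoter, the shares of all 35116 were 0.0769% for ERSE, 0.0541% for ERSE-II, 0.729% for TGACGTGG and 34.6% for CCAAT. Each match below is given on its own strand with 5 bases on either side, and capitals mark the 5 bases at each end of the element.
HSPA5: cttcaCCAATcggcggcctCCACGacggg
HSP90B1, distal: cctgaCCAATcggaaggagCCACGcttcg
HSP90B1, proximal: acccaCCAATcgcgccgcaCCACGcaccc
PDIA6: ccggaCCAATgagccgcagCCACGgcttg
CALR: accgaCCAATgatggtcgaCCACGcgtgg
CANX: cccggCCAATcttcacactCCACGaagaa
HERPUD1: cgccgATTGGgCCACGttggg

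The HSPA5 element lay from -66 to -48 relative to the start site. The HSP90B1 elements lay from -194 to -176 and, on the opposite strand, from -89 to -71. The CALR element was on the opposite strand, from -225 to -207. The CANX element lay from -151 to -133 in the first of its 4 listed promoters. The same letters lay from -9 to 10 in the third and from -189 to -171 in the fourth, and the second held no match. PDIA6 carried its element, from -86 to -68, in the second of its 2 listed promoters. The HERPUD1 element lay from -117 to -107. A match of letters is a description and not evidence that a factor binds there. The 250 bases before the HSPA5 start site (GRCh38.p14, chr9:125241344-125241593, minus strand) are printed with the whole ERSE match in capitals, because HSPA5 is the most abundant member in CPM and the textbook target of the response.
HSPA5 promoter: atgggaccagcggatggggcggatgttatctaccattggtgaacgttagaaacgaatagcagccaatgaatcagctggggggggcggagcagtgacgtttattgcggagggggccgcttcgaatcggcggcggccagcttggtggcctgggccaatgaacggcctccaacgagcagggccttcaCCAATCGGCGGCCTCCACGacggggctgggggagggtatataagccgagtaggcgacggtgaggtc

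**Figure D1:**
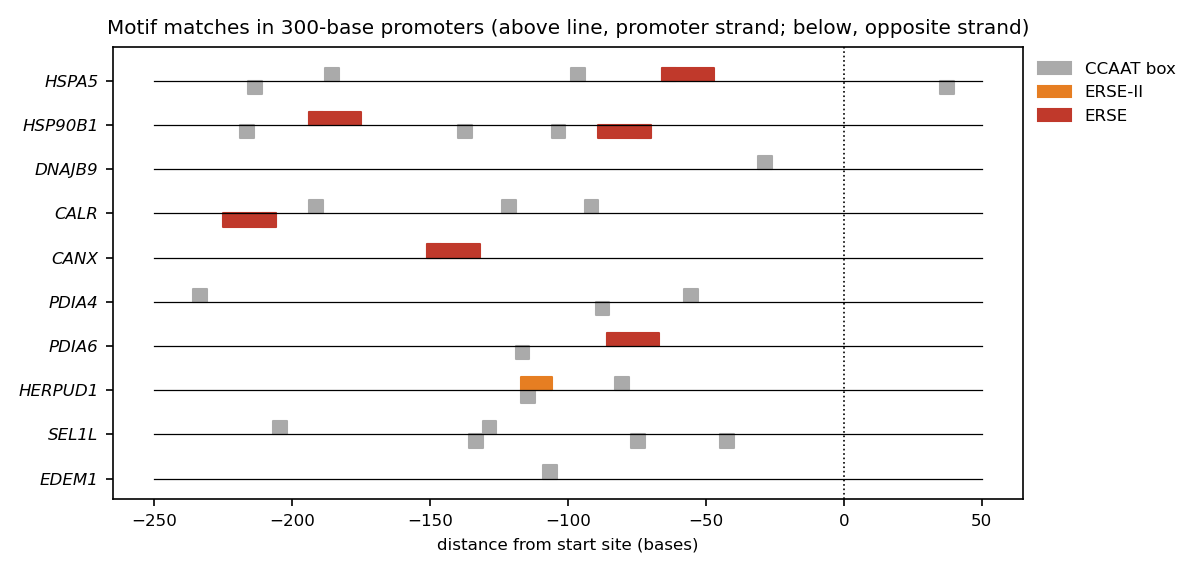
Matches to the CCAAT box (grey), ERSE (red) and ERSE-II (orange) in the 300-base promoter of each member, by distance from the start site in bases; boxes above a line are on the promoter strand and those below on the opposite strand. The second listed promoter is drawn for PDIA6 and the first for the others; DNAJB9, PDIA4, SEL1L and EDEM1 show only CCAAT boxes.

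The depth on genes ran from 9914253 to 17009776 reads, so that 3 counts were worth 0.177 to 0.303 CPM (counts divided by the TMM-adjusted library total and put on one scale). All 9 luminal epithelial markers were above that floor in all libraries, KRT19 at 2540 to 3150 CPM and ESR1 at 163 to 188 CPM. Among markers of other cell types, COL1A1, a collagen of fibroblasts, was at 80 to 99.9 CPM, while the fibroblast collagen COL3A1 was at 0 to 0.0778 CPM. The leukocyte marker PTPRC was at 0 to 0.233 CPM, the endothelial marker PECAM1 at 0 to 0.139 CPM and the basal keratin KRT5 at 0 to 0.0873 CPM. Of the replicate pairs, anastrozole a and c differed most (chi-square over its degrees of freedom 4.62, and 1.27 to 2.56 for the others). One property of the libraries moves with many of the values below. In 11037 genes averaging 3 log2 CPM or more, fold changes on the log2 scale followed the GC content of the transcript, with Spearman's rho of -0.55 for anastrozole, -0.56 for E2 and -0.033 for both agents against vehicle, and 0.69 for both agents against E2; genes are not independent, so no p is given. The tests were therefore repeated with each library's GC trend removed, a step that would take away real GC-linked changes too.

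The members spanned a wide range of abundance. Per kilobase of canonical transcript, the vehicle level was 1018 ± 13.4 CPM per kb for CALR, 691.5 ± 13.3 for HSP90B1, 546.4 ± 2.75 for HSPA5 and 359.2 ± 9.79 for CANX (SD, n = 3). It was 122 ± 1.21 for PDIA6, 97.3 ± 1.77 for PDIA4, 93.1 ± 2.21 for SEL1L, 24.47 ± 0.813 for HERPUD1, 20.1 ± 0.418 for EDEM1 and 15.59 ± 1.08 for DNAJB9. Each neighbouring pair in this order was separated by more than the sum of its SDs, with PDIA4 and SEL1L the closest in proportion. The members together took 0.92% to 1.02% of the reads on genes. Their summed level was 9217, 9366 and 9261 CPM in vehicle a, b and c, and 10240, 10030 and 9834 CPM with anastrozole. It was 9640, 9573 and 9572 CPM with E2, and 9469, 9494 and 9454 CPM with both agents. The groups did not overlap in this sum, and anastrozole was highest and vehicle lowest.

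**Figure D2:**
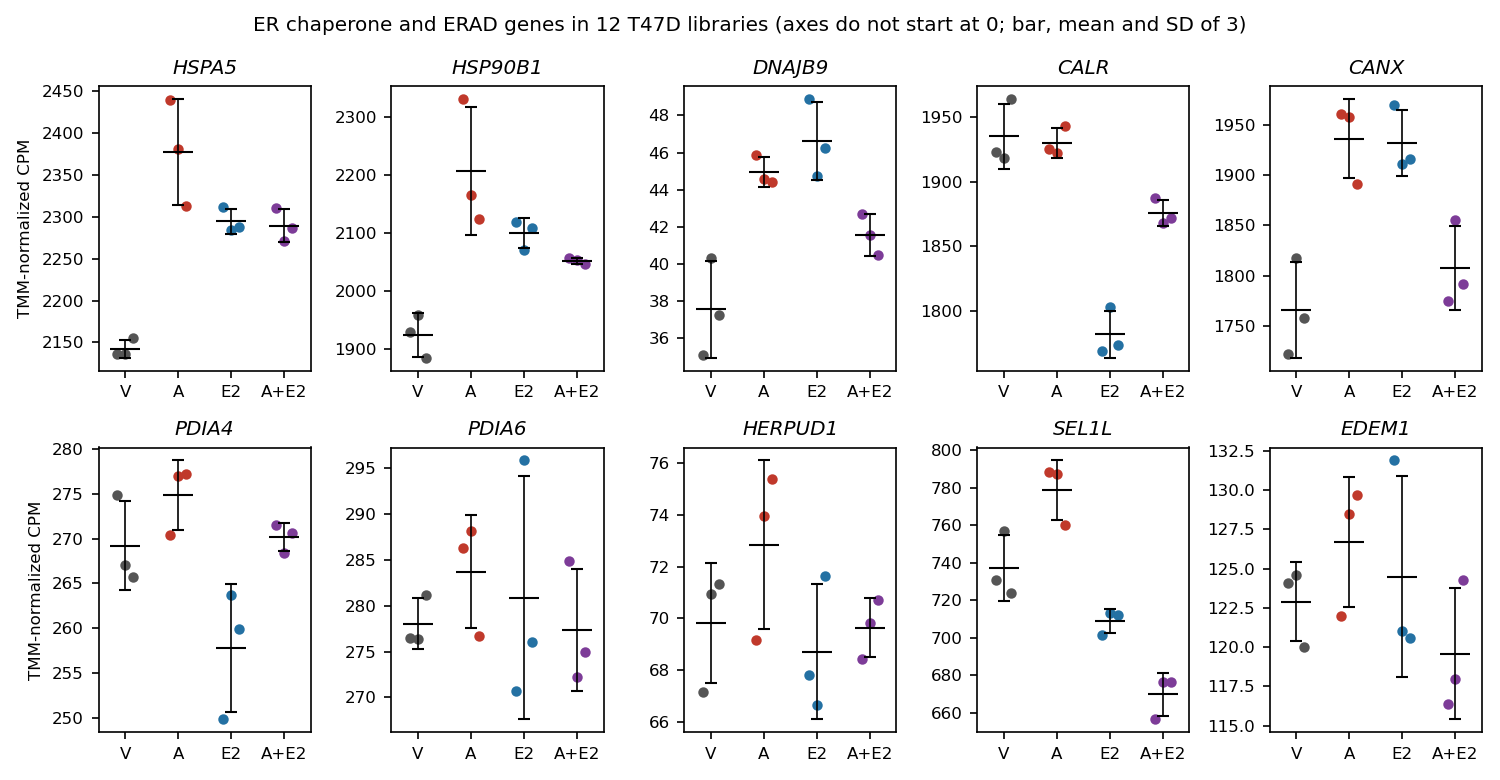
TMM-normalized CPM of each member in the 12 libraries (V, vehicle; A, anastrozole; E2; A+E2, both); points are libraries a, b and c from left to right, the horizontal line is the mean and the bar the SD of 3, and the axes do not start at 0. All 9 treated libraries lie above the 3 vehicle libraries for HSPA5, HSP90B1 and DNAJB9, and all 3 E2 libraries lie below every other library for CALR.

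In the comparison of anastrozole with vehicle, 4 of 10 members were higher and 0 lower at an adjusted p under 0.05, against 1.4% of all genes higher and 2.27% lower. These were HSP90B1, HSPA5, DNAJB9 and CANX, raised between 9.7% and 19.7%. Without the GC trend 2 were called (HSP90B1 and HSPA5), with limma-voom 0, and 1 in each of the fits without vehicle a, vehicle c, anastrozole a or anastrozole b. Of all genes, 1.2% were higher and 1.78% lower without the GC trend, and 0.0284% and 0.0426% with limma-voom. In those left-out fits 0.361% to 0.518% of all genes were higher and 0.546% to 0.95% lower. With E2, 4 members were higher (the same 4 by name) and 1, CALR, was lower, against 6.06% and 5.95% of all genes. Without the GC trend the E2 calls were 2 higher (HSPA5 and DNAJB9) and 2 lower (CALR and SEL1L), against 3.55% and 3.65% of all genes. With both agents, 2 were higher (HSPA5 and HSP90B1) and 1, SEL1L, was lower, against 2.71% and 2.33%. The median log2 fold change of the members was 0.069, 0.016 and 0.001 in these comparisons, where that of the 11037 expressed genes was -0.0035, 0.00384 and -0.00435. These comparisons share the vehicle libraries, so their likeness is not independent evidence. Adjusted p-values are Benjamini-Hochberg values over 21132 genes from the quasi-likelihood test of edgeR. Of these, 11037 averaged 3 log2 CPM or more, as did all 10 members, so the shares include many genes with fewer counts. With genes of few counts removed (filterByExpr), 1.27% of genes were higher and 1.6% lower with anastrozole. The shares were 9.01% and 8.84% with E2, and 3.3% and 2.9% with both.

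**Figure D3:**
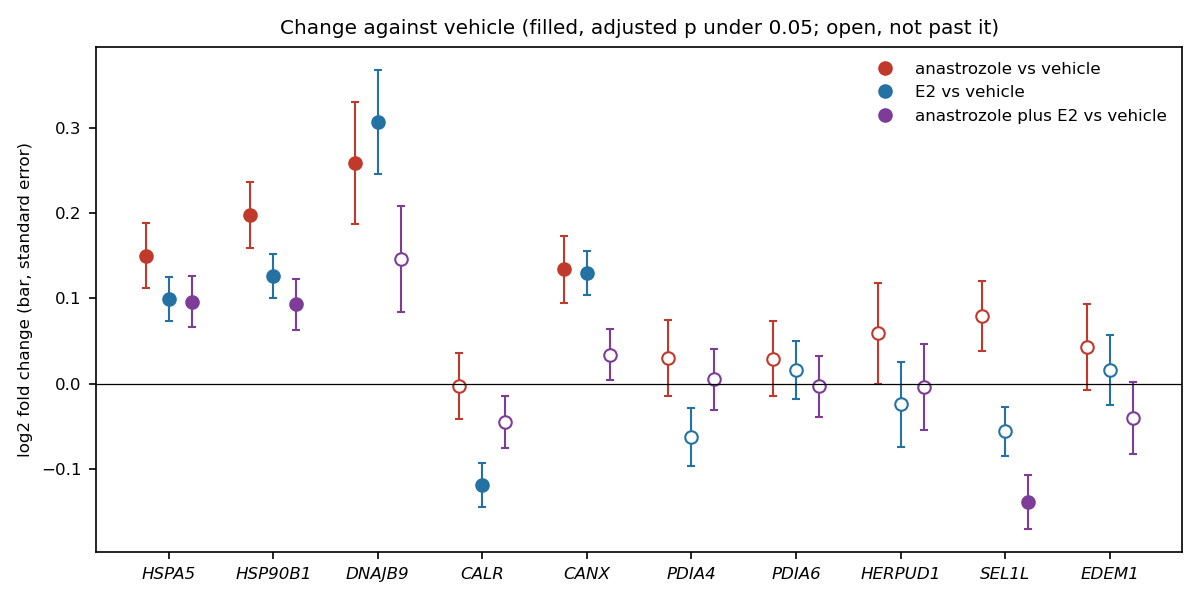
Log2 fold change of each member against vehicle with its standard error, for anastrozole (red), E2 (blue) and both agents (purple); filled points have an adjusted p under 0.05. HSPA5 and HSP90B1 are filled in all 3 comparisons, CALR only for E2 and SEL1L only for both agents.

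HSPA5 (BiP; ENSG00000044574, GRCh37 chr9:127997132-128003661) is the Hsp70 of the ER and holds the stress sensors inactive. Its level was 2136, 2136 and 2155 CPM in vehicle a, b and c and 2439, 2381 and 2313 CPM with anastrozole. It was 2312, 2284 and 2288 CPM with E2 and 2310, 2271 and 2287 CPM with both agents. Every treated library was above every vehicle library, and the combination overlapped with E2 alone. HSPA5 rose with anastrozole by a log2 fold change of 0.15 ± 0.038 (SE, adjusted p = 0.0072), with E2 by 0.099 ± 0.026 (adjusted p = 0.0027) and with both by 0.096 ± 0.030 (adjusted p = 0.032). Without the GC trend all 3 calls were kept (0.12, 0.069 and 0.095), but the E2 call was lost when the replicate block was added (0.069, adjusted p = 0.07). The call for anastrozole passed in 2 of 6 fits that left out a library, and that for both agents in 0 of 6, where its log2 fold change stayed between 0.089 and 0.105.

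HSP90B1 (GRP94; ENSG00000166598, GRCh37 chr12:104323885-104347709), the Hsp90 of the ER, folds a narrower set of secreted and membrane proteins. Vehicle libraries held 1929, 1958 and 1884 CPM, and anastrozole libraries 2331, 2166 and 2123 CPM. E2 libraries held 2119, 2070 and 2108 CPM, and libraries of both agents 2056, 2053 and 2046 CPM. The groups were ordered anastrozole, E2, both and vehicle without overlap. HSP90B1 rose with anastrozole by 0.20 ± 0.039 (SE, adjusted p = 0.00011), with E2 by 0.13 ± 0.026 (adjusted p = 6.7e-05) and with both by 0.093 ± 0.030 (adjusted p = 0.042). For anastrozole the call was kept in 14 of 15 alternatives and was lost with limma-voom. For E2 it was lost when the GC trend was removed (0.059, adjusted p = 0.099), and for both agents it passed in 1 of 6 fits that left out a library. HSP90B1 shares 10.14% of its exon bases with C12orf73 on the opposite strand, and the sources used here do not say whether counting used the strand.

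DNAJB9 (ERdj4; ENSG00000128590, GRCh37 chr7:108210311-108215294) is a J-domain cochaperone that brings HSPA5 to its clients and to IRE1. It had the fewest counts of the members, 434 to 757 per library. Its level was 35.1, 40.3 and 37.26 CPM in vehicle and 45.87, 44.57 and 44.42 CPM with anastrozole. It was 48.89, 44.72 and 46.23 CPM with E2 and 42.69, 41.55 and 40.46 CPM with both agents. All treated libraries were above all vehicle libraries, and those of both agents were below those of either agent alone. DNAJB9 rose with E2 by 0.31 ± 0.061 (SE, adjusted p = 2e-05), or 23.7%, and this call was kept in 15 of 15 alternatives, with values of 0.21 to 0.36. It rose with anastrozole by 0.26 ± 0.072 (adjusted p = 0.016), a call lost without the GC trend (0.18, adjusted p = 0.1) and in 4 of 6 fits that left out a library. With both agents its log2 fold change was 0.15 ± 0.062 (adjusted p = 0.18).

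The lectin chaperones CALR and CANX, which bind the same kind of glycan, had opposite signs with E2. CALR (calreticulin, soluble; ENSG00000179218, GRCh37 chr19:13049392-13055303) was at 1923, 1918 and 1964 CPM in vehicle and 1925, 1922 and 1943 CPM with anastrozole. It was at 1769, 1803 and 1774 CPM with E2 and 1887, 1868 and 1872 CPM with both. Vehicle and anastrozole overlapped, both agents lay below them, and E2 lay below all. CALR fell with E2 by 0.12 ± 0.026 on the log2 scale (SE, adjusted p = 0.00023), and the call was kept in 15 of 15 alternatives, with values of -0.127 to -0.078. With anastrozole its log2 fold change was -0.003, with a 95% interval of -0.079 to 0.073.

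CANX (calnexin, anchored in the membrane; ENSG00000127022, GRCh37 chr5:179105629-179158642) was at 1722, 1817 and 1758 CPM in vehicle and 1961, 1958 and 1891 CPM with anastrozole. It was at 1970, 1911 and 1916 CPM with E2 and 1775, 1855 and 1792 CPM with both. The libraries of either single agent were above all vehicle libraries, while those of both agents overlapped with vehicle. CANX rose with anastrozole by 0.13 ± 0.039 (SE, adjusted p = 0.025) and with E2 by 0.13 ± 0.026 (adjusted p = 3.9e-05). Neither call was kept without the GC trend, where the values were 0.067 (adjusted p = 0.18) and 0.050 (adjusted p = 0.2). CANX has a GC content of 39.9% and CALR of 53.8%, the highest of the members.

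The disulfide isomerases PDIA4 (ERp72; ENSG00000155660, GRCh37 chr7:148700154-148725754) and PDIA6 (P5; ENSG00000143870, GRCh37 chr2:10923517-10978103) form and rearrange disulfide bonds. Neither passed the test in any comparison. PDIA4 ranged from 249.8 to 277.2 CPM, and its 3 E2 libraries (249.8, 263.7 and 259.9 CPM) were below its 3 vehicle libraries (274.9, 267.1 and 265.7 CPM). Its log2 fold change with E2 was -0.062, with a 95% interval of -0.128 to 0.005. PDIA6 ranged from 270.7 to 295.8 CPM, and both of these extremes were E2 libraries. PDIA6 shares 45.33% of its exon bases with ATP6V1C2 on the opposite strand, so its reads cannot be assigned to it with certainty.

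The ERAD members were SEL1L, HERPUD1 and EDEM1. SEL1L (ENSG00000071537, GRCh37 chr14:81937891-82000197) is the partner that holds the ubiquitin ligase HRD1 in a stable complex. Its level was 730.6, 757.1 and 724 CPM in vehicle and 788.4, 787.2 and 760.2 CPM with anastrozole. It was 701.6, 712.9 and 712.3 CPM with E2 and 656.3, 676.4 and 676.2 CPM with both. No groups overlapped, with anastrozole highest and both agents lowest. SEL1L fell with both agents by 0.14 ± 0.032 on the log2 scale (SE, adjusted p = 0.00091), and the call was kept in 15 of 15 alternatives, with values of -0.149 to -0.119. Its log2 fold change was 0.079 with anastrozole (adjusted p = 0.34) and -0.056 with E2. The E2 value became -0.14 (adjusted p = 3.9e-06) without the GC trend.

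HERPUD1 (ENSG00000051108, GRCh37 chr16:56966054-56978776), a membrane protein of the HRD1 complex and a sensitive reporter of ER stress, ranged from 66.64 to 75.4 CPM. Its log2 fold change was 0.059 with anastrozole (95% interval -0.057 to 0.175), -0.024 with E2 (-0.123 to 0.074) and -0.004 with both (-0.102 to 0.093). EDEM1 (ENSG00000134109, GRCh37 chr3:5229331-5261643), a mannosidase-like protein that marks glycoproteins for ERAD, ranged from 116.4 to 131.9 CPM. Neither gene passed the test in any comparison, and the groups overlapped with vehicle for both genes in all 3 treatments.

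The 5 members with ERSE did not move as one group. HSPA5, HSP90B1 and CANX rose with E2, CALR fell, and PDIA6 did not pass (log2 fold change 0.016). Without the GC trend HSPA5 (0.069) and CALR (-0.078) stayed past the threshold. HSP90B1 (0.059, adjusted p = 0.099), CANX (0.050, adjusted p = 0.2) and PDIA6 (-0.020) did not pass there. Among the members without ERSE, DNAJB9 rose with E2, and SEL1L fell past the threshold only without the GC trend (-0.14). HERPUD1, which has ERSE-II instead, did not pass (-0.024). Whether the element bears on these changes was not tested.

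Direct comparisons between treatments gave fewer calls. Anastrozole against E2 had 2 members higher and 0 lower, against 0.62% and 0.705% of all genes. These were CALR, by a log2 fold change of 0.12 ± 0.034 (SE, adjusted p = 0.027), and SEL1L, by 0.14 ± 0.036 (adjusted p = 0.011), and each passed in 2 of 6 fits that left out a library. Neither passed with the replicate block, where 0.383% of all genes were higher and 0.468% lower. Without the GC trend both were kept (0.111, adjusted p = 0.0012, and 0.155, adjusted p = 4.9e-06). HSP90B1 was gained there (0.087, adjusted p = 0.023), where 1.17% of all genes were higher and 1.31% lower. Both agents against anastrozole had 0 members higher and 1 lower, against 1.71% and 1.18% of all genes. This was SEL1L, which fell by 0.22 ± 0.041 (adjusted p = 3.2e-05) and kept its call in 15 of 15 alternatives. All 10 members had a negative sign there, with a median of -0.076, where that of the 11037 expressed genes was -0.000989. The share of all genes with a negative sign was not counted. Fold changes of all expressed genes followed GC content in this comparison too (Spearman's rho 0.58), and without the GC trend the members lay between -0.152 and -0.001. Both agents against E2 had 0 members higher and 1 lower, against 3.23% and 3.51% of all genes. This was CANX, which fell by 0.096 ± 0.027 (adjusted p = 0.012), a call lost without the GC trend (-0.018).

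The interaction term asks whether the change with both agents differs from the sum of the changes with each on the log2 scale. It was negative past the threshold for 5 members and positive for 0, against 4.93% and 5.93% of all genes. The members were DNAJB9 (-0.42 ± 0.093, adjusted p = 0.00029), HSP90B1 (-0.23 ± 0.046, adjusted p = 3.6e-05), CANX (-0.23 ± 0.046, adjusted p = 4.7e-05), SEL1L (-0.16 ± 0.049, adjusted p = 0.015) and HSPA5 (-0.15 ± 0.045, adjusted p = 0.011). For DNAJB9, HSP90B1, CANX and HSPA5, which were called higher with each agent alone, the log2 fold change with both agents was smaller than the sum of the 2 single values, and for DNAJB9 and CANX it did not pass the test against vehicle (adjusted p = 0.18 and 0.69). Across all expressed genes, the interaction term followed GC content with Spearman's rho of 0.72, and without the GC trend 0 of these 5 calls were kept, with values of -0.24, -0.108, -0.085, -0.009 and -0.094. Of all genes, 1.54% were called higher and 1.06% lower in that fit. How much of the interaction belongs to the GC trend was not tested.

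**Figure D4:**
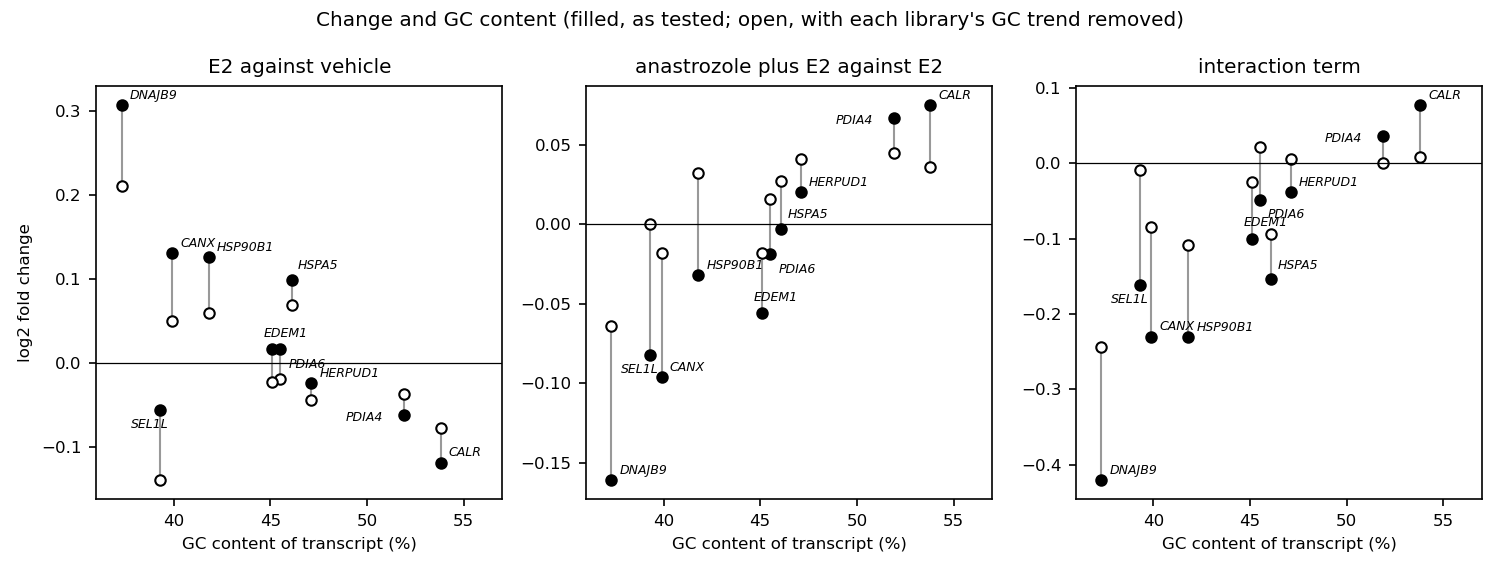
Log2 fold change of each member against the GC content of its canonical transcript (%), for E2 against vehicle, both agents against E2, and the interaction term; filled points are as tested and open points have each library's GC trend removed. The open points of the interaction lie closer to 0 than the filled points for all 10 members, while for E2 DNAJB9 (0.21), HSPA5 (0.069), and CALR (-0.078) stay past the threshold without the GC trend and SEL1L (-0.14) passes only then.

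Other genes of the pathway were read from lists by function. Their counts stand beside shares of all genes of 1.4% higher and 2.27% lower with anastrozole, 6.06% and 5.95% with E2, and 2.71% and 2.33% with both, and no list was tested against them. Of 11 folding cofactors of HSPA5, 0 passed with anastrozole and 0 with both agents, and 2 were lower with E2, SDF2L1 (log2 fold change -0.24) and SIL1 (-0.14). Neither passed without the GC trend (-0.105, adjusted p = 0.5, and -0.063, adjusted p = 0.56), and SIL1 passed in 4 of 15 alternatives. Of 22 measured disulfide isomerases and oxidases beside the members, 1 was higher and 1 lower with anastrozole, 3 higher with E2, and 3 higher and 1 lower with both. The gene that rose in each was ERO1L (ERO1A), the oxidase that recharges the isomerases. Its mean level was 324.4 ± 15.5 CPM in vehicle, 420 ± 17.2 with anastrozole, 470.8 ± 12 with E2 and 441.3 ± 7.71 with both (SD, n = 3). ERO1L rose by 0.37 (adjusted p = 2.19e-14), 0.54 (1.43e-58) and 0.44 (3.78e-34) on the log2 scale, more than any of the 10 members, and each call was kept in 15 of 15 alternatives.

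Of 20 sensors and factors of the unfolded protein response, 1 was higher with anastrozole, 3 higher and 2 lower with E2, and 1 higher and 1 lower with both. DDIT3 (CHOP), the factor induced downstream of PERK, rose in all 3, by 0.33 (adjusted p = 0.00014), 0.36 (4.8e-09) and 0.32 (7.59e-07), from 47.68 ± 2.45 CPM in vehicle to between 59.45 and 61.38 CPM. CREB3L4, a membrane-bound factor of the same kind as ATF6 that shares 5.2% of its exon bases with JTB on the opposite strand, fell with E2 by 0.32 (adjusted p = 1.83e-14) and with both by 0.22 (3.7e-06) on the log2 scale. With E2, ERN1 (IRE1) rose by 0.30 (adjusted p = 0.00744) and YY1 by 0.17 (0.000439), while ATF6B fell by 0.17 (0.000172). These calls were kept without the GC trend, and ERN1 passed in 11 of 15 alternatives. DDIT3 was the only gene of this list that passed with anastrozole. Of 12 genes of glycoprotein quality control, 1 was higher with anastrozole, 2 higher and 2 lower with E2, and 0 passed with both. LMAN1, a lectin that carries glycoproteins out of the ER, rose by 0.21 with anastrozole (adjusted p = 0.000576) and 0.22 with E2 (2.28e-08). Without the GC trend these values were 0.13 and 0.12, both still past the threshold. Of 29 ERAD genes beside the members, 1 was lower with anastrozole, 3 higher and 1 lower with E2, and 1 higher with both; of 16 translocon and signal peptidase genes, 4 were higher and 1 lower with E2 and 0 passed in the other comparisons with vehicle. The median log2 fold change of each of these 6 lists lay between -0.052 and 0.049 in the 3 comparisons with vehicle.

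Genes with patterns like those of 3 members were sought over the 12 libraries among 6778 genes of at least 5 log2 CPM, by the root mean square difference of centred log2 CPM. RUFY2 (0.028), RNF170 (0.028) and H1F0 (0.029) were nearest to HSPA5, whose nearest fellow member was HSP90B1 (0.030). CTDSP2 (0.024), GOLGA2 (0.028) and SUPT6H (0.028) were nearest to CALR. PACSIN1 (0.032), ATXN1L (0.034) and CUL4A (0.036) were nearest to HERPUD1, whose own SD over the 12 libraries was 0.054.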

How the data were processed

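The authors aligned reads to hg19 with TopHat2 2.0.14 and Bowtie2 2.2.6, counted them per gene with HTSeq and deposited raw counts, per the labels and the submitters' processing notes; the annotation, strand setting and HTSeq version are not given in the sources used here. The labels name polyA RNA and the protocols total RNA libraries. Summary lines (58.6% to 59.9% of reads in no gene, 6.6% to 7.4% not unique) were left out, as were 4238 genes with 0 counts. Each pair of groups was tested in R 4.3.3 with edgeR 4.0.16 on its own 6 libraries (TMM, robust quasi-likelihood F test, 2-sided, threshold 0.05), and the interaction on all 12; each SE was derived from the log2 fold change and F (size of the change over the root of F). The alternatives were DESeq2's size factors, library size alone, filterByExpr, DESeq2 1.42.0, limma-voom (limma 3.58.1), all 12 libraries, the replicate letter as a block, removal of each library's GC trend (lowess, span 0.5), that with the block, and leaving out each library. Positions, lengths and GC content are from GENCODE 44 mapped to GRCh37, whose main chromosomes hg19 shares. Floors and intervals cover counting error only where they come from counts, since reads carry no molecular identifiers. All 10 members were named in every comparison; from each other list, up to 3 genes with the largest change among those called could be named, and the 3 genes nearest in pattern for HSPA5, HERPUD1 and CALR. The members and lists were chosen with earlier results of these data known. Methods were tested on simulated data. One of the listed markers of other cell types is not reported here.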

Additional observations from a re-analysis of the deposited data

Results flagged for a closer look

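The effect of E2 differed between cells with and without anastrozole for 5 members, by the interaction term of edgeR's quasi-likelihood test. The values on the log2 scale were -0.154 for HSPA5, -0.231 for HSP90B1, -0.421 for DNAJB9, -0.230 for CANX and -0.161 for SEL1L. HSPA5, HSP90B1, DNAJB9 and CANX were called higher with each agent alone. With both agents HSPA5 and HSP90B1 were called higher, DNAJB9 and CANX did not pass the test, and SEL1L was called lower. None of the 5 passed the threshold after removal of the GC trend alone, and HSP90B1 passed after removal together with the replicate block. Of all genes, the interaction called 5.93% higher and 4.93% lower, and 1.54% and 1.06% without the GC trend.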

How the results depend on the processing

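Of the calls of single members against vehicle, DNAJB9 and CALR with E2 and SEL1L with both agents were kept in all 15 alternatives, as was SEL1L for both agents against anastrozole. Members called for anastrozole against vehicle numbered 4, and 0 with limma-voom, 2 without the GC trend, 2 without it and with the replicate block, and 1 to 4 when a library was left out (1 without vehicle a, vehicle c, anastrozole a or anastrozole b). For E2 they numbered 5 (4 higher and 1 lower), and 4 without the GC trend (2 higher and 2 lower: HSP90B1 and CANX were lost and SEL1L was gained), 3 without it and with the block (1 higher and 2 lower), and 5 in every fit that left out a library. For both agents against vehicle they numbered 3, and 1 with all 12 libraries and 1 to 2 when a library was left out. For anastrozole against E2 they numbered 2, and 3 without the GC trend (HSP90B1 was gained), 0 with the replicate block and 0 to 3 when a library was left out (0 without anastrozole b, E2 a, E2 b or E2 c). For both agents against E2 they numbered 1, and 2 with library size alone, filterByExpr, limma-voom or the replicate block, 3 with DESeq2, 0 with all 12 libraries, 0 without the GC trend with or without the block, and 0 to 3 when a library was left out (0 without E2 a or replicate c of both agents, 3 without replicate a of both agents). For both agents against anastrozole they numbered 1, and 2 with all 12 libraries and 1 to 3 when a library was left out (3 without anastrozole c). The interaction gave 5, and 0 without the GC trend, 1 without it and with the block, and 4 to 5 when a library was left out. The shares of all genes called moved in these settings too. For anastrozole against vehicle, limma-voom called 0.0284% higher and 0.0426% lower. Without the GC trend the shares were 1.2% and 1.78% there, and 3.55% and 3.65% for E2. They were 1.17% and 1.31% for anastrozole against E2, and 0.402% and 0.379% for both agents against E2. For the interaction they were 1.54% and 1.06%, and 1.82% and 1.24% with the block. Apart from the GC settings, whose construction removes changes that follow GC content, the cause was not tested.

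The letters a, b and c were not taken as pairs: same-letter libraries deviated from their group means with correlations of -0.20 to 0.18, and in no comparison were all 3 over 0.1.

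Signs turned only for members that did not pass the threshold in the main fit of that comparison. Among them, SEL1L for both agents against E2 passed in 2 of 15 alternatives. Without the GC trend the log2 fold changes became -0.006 for PDIA6 and 0.027 for CALR with anastrozole, and -0.020 for PDIA6 (-0.022 with the block) and -0.023 for EDEM1 with E2. For both agents against E2 they became 0.027 for HSPA5, 0.032 for HSP90B1, 0.016 for PDIA6 (0.017 with the block) and 0.000 for SEL1L. For the interaction they became 0.006 for HERPUD1 (0.007 with the block), -0.000 for PDIA4 and 0.022 for PDIA6. With library size alone, PDIA6 became 0.000 for both agents against vehicle, and HSPA5 0.007 for both agents against E2. When a library was left out, the range was -0.009 to 0.008 for CALR with anastrozole, -0.024 to 0.041 for PDIA6 and -0.025 to 0.038 for EDEM1 with E2. For both agents against vehicle it was -0.029 to 0.015 for HERPUD1, -0.001 to 0.023 for PDIA4 and -0.023 to 0.013 for PDIA6. For anastrozole against E2 it was -0.006 to 0.061 for PDIA6 and -0.006 to 0.026 for CANX. For both agents against E2 it was -0.012 to 0.006 for HSPA5, -0.001 to 0.052 for HERPUD1 and -0.045 to 0.024 for PDIA6.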
